A study of Glycine max with 8 samples.

Results

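Legumes limit the number of their own nodules through a long-distance feedback loop called autoregulation of nodulation. Rhizobia induce the roots to make small CLE peptides, which travel to the shoot and are perceived there by a leucine-rich-repeat receptor kinase; a signal returned to the root then restrains further nodules. In soybean (Glycine max) the receptor is NARK, loss of which causes supernodulation, and the rhizobia-induced CLE peptides include RIC1 and RIC2. CLV1A is the homeolog of NARK, the copy kept from the genome duplication, and is known for a role in shoot growth rather than in nodule number. Since NARK is known to act in the shoot, the values given here concern transcript present in nodules and not the perception step itself.

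These 4 genes were chosen by name and not by their values, though with earlier results of these data known. All 4 were found among the 43517 genes of the count table and in the deposited FPKM table. The pairing of symbols with identifiers comes from the list by which the genes were chosen, and only partial checks of it were possible here. In that list NARK is Glyma.12G040000.Wm82.a2.v1, CLV1A is Glyma.11G114100.Wm82.a2.v1, RIC1 is Glyma.13G292300.Wm82.a2.v1 and RIC2 is Glyma.06G284100.Wm82.a2.v1. The deposited files hold identifiers only. A RefSeq gene table for assembly Glycine_max_v4.0 lists each of the 4 symbols once, on chromosomes 12, 11, 13 and 6, the chromosomes that the identifiers carry. The gene lengths implied by the deposited FPKM were 3364 bases for NARK, 3354 for CLV1A, 706 for RIC1 and 1001 for RIC2. The genes of these symbols span 3763, 3318, 786 and 906 bases in the RefSeq table, whose gene models belong to another assembly.

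RNA was sequenced from nodules of plants kept at low nitrogen. The 4 libraries of group R came from plants given the strain labelled Bra.Q2, and the 4 libraries of group BR from plants given Bra.Q2 and a second strain labelled Bac.B, so both groups share low nitrogen and Bra.Q2. The sources used here do not give cultivar, plant age or the number of plants behind a library, so p-values reflect only how far the libraries of a group varied, and that variation may be technical. There was no group without rhizobia.

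Totals were 15133989 to 17287964 counts in BR and 14223489 to 15266510 in R. The R libraries fell into 2 pairs. CPM are counts brought to the same total in every library. Over the 29508 tested genes, correlations of their log2 values were 0.968 between R1 and R2 and 0.975 between R3 and R4. Across these pairs they were 0.903 to 0.946, against 0.955 to 0.981 within BR. Between groups they were 0.908 to 0.937 for R1 or R2 with BR and 0.889 to 0.907 for R3 or R4 with BR. The range across the R pairs thus overlapped the ranges between groups. Results for the 4 genes are therefore also given without either pair. The labelled tissue could not be checked against leghemoglobin or other nodule markers, since no source used here pairs those names with the identifiers.

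NARK transcript was higher in nodules that had also received Bac.B. With Bac.B, BR1 to BR4 held 498, 547, 801 and 936 NARK counts; without it, R1 to R4 held 334, 246, 283 and 309. After scaling by library total and composition (TMM, the trimmed mean of M-values), these were 31.4, 29.8, 44.1 and 52.3 CPM in BR and 23.95, 17.7, 20.9 and 22.4 CPM in R. All 4 BR libraries lay above all 4 R libraries. BR3 and BR4 were the highest, while BR1 and BR2 were closer to R1, the highest R library.

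The mean level of NARK was 39.4 ± 10.7 CPM in BR and 21.3 ± 2.66 CPM in R (SD, n = 4), a 1.85-fold difference. On the log2 scale the change was 0.89 (SE 0.20, 95% interval 0.45 to 1.34; edgeR quasi-likelihood test, adjusted p = 0.0155 by the Benjamini-Hochberg method over all tested genes). An exact two-sided permutation test of the scaled levels gave p = 0.0286, the smallest value that 4 libraries against 4 allow. In bulk nodule RNA, more cells that contain the transcript and more transcript per cell cannot be told apart.

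Change was common in these nodules, and the call for NARK has to be read against that. Of all tested genes, 18.3% passed the same test, 7.98% as higher and 10.3% as lower in BR, and 24.5% had groups that did not overlap (11.4% with all BR libraries above all R libraries and 13.1% with all below). NARK's log2 fold change exceeded that of 91.5% of tested genes. Among the 2355 genes called higher, the median log2 fold change was 1.01, and 1428 of them changed more than NARK did. Of the 4038 tested genes within 0.5 log2 CPM of NARK's mean level, 361 were called higher (8.94%) and 649 lower (16.1%) with TMM. The balance of directions depends on the scaling: over all tested genes the higher share of the calls was 43.5% with TMM, but 57.7% under upper-quartile and 71.2% under total-count scaling.

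**Figure D1:**
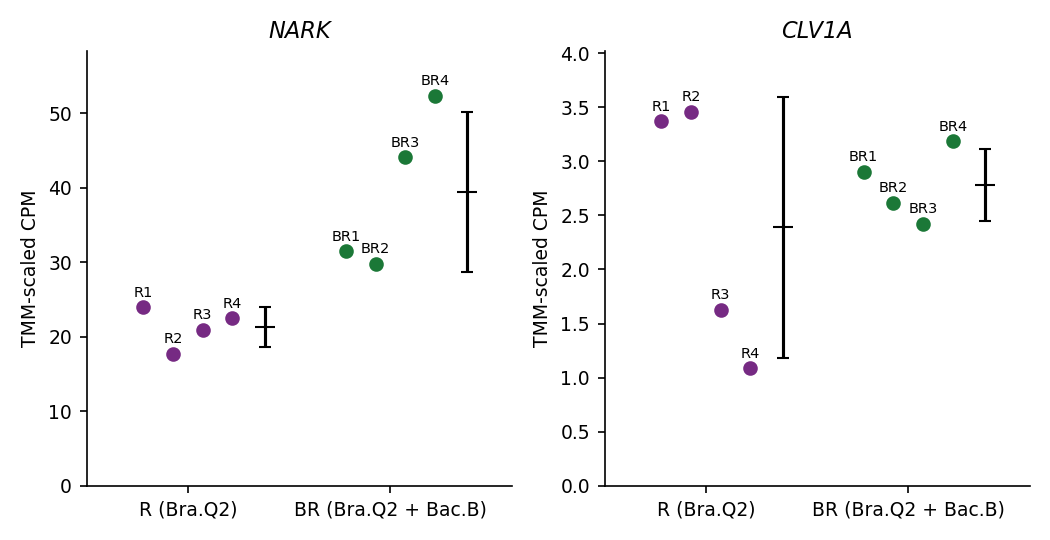
TMM-scaled CPM of NARK (left) and CLV1A (right) in each library, with the group mean and SD (n = 4) as a bar beside the points. For NARK every BR library (29.8 to 52.3 CPM) is above every R library (17.7 to 23.95 CPM); for CLV1A the BR libraries lie between R1 and R2 above and R3 and R4 below.

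**Figure D2:**
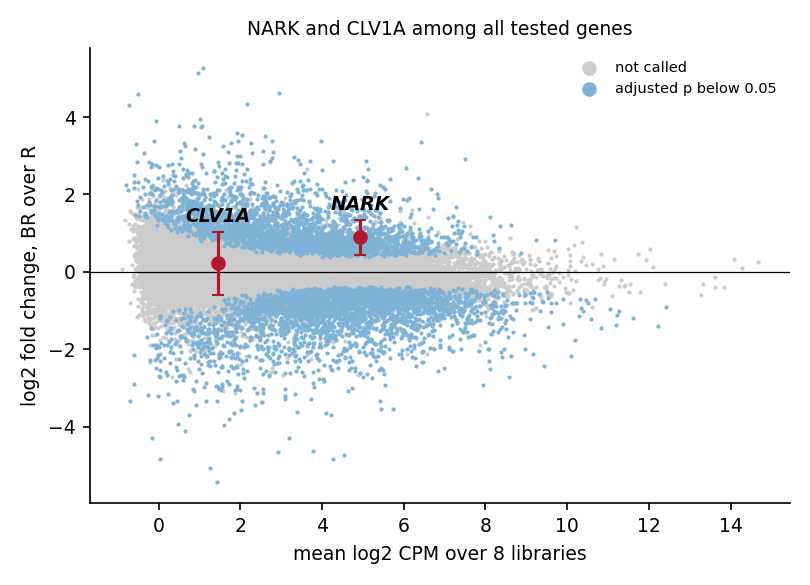
Log2 fold change of BR over R against mean log2 CPM for the 29508 tested genes, with genes of adjusted p below 0.05 in blue and NARK and CLV1A in red with their 95% intervals. NARK (0.89) lies within the band of called genes and the interval of CLV1A crosses 0.

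The NARK difference kept its direction in 22 of 22 other settings, with log2 fold changes from 0.72 to 1.09, and stayed past the threshold in 21. The exception was the fit without R3 and R4, where the log2 fold change was 0.94 (SE 0.27) and the edgeR adjusted p was 0.052 with 2 R libraries left. With the filter on low counts, the highest adjusted p with 1 library left out was 0.0494, without BR3, followed by 0.0438 without BR4. These values lie close to the threshold. The filter decided the side for the fits without BR3 and without R3 and R4. With no filter, NARK missed the threshold without BR3 (log2 fold change 0.82, edgeR adjusted p = 0.051) and passed it without R3 and R4 (edgeR adjusted p = 0.0425). Without BR4 it passed either way (edgeR adjusted p = 0.0486 with no filter). Scaling by total counts alone moved the median log2 fold change of all tested genes from -0.02 to 0.18, and NARK then had 1.09 (edgeR adjusted p = 0.00699), still well above that median.

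CLV1A was expressed at a much lower level than NARK and showed no difference between treatments that passed the test. BR1 to BR4 held 46, 48, 44 and 57 counts of CLV1A, and R1 to R4 held 47, 48, 22 and 15. After scaling these were 2.90, 2.62, 2.42 and 3.19 CPM with Bac.B and 3.37, 3.46, 1.63 and 1.09 CPM without it. The BR libraries were close together. On this scale the R libraries split, with R1 and R2 above all BR libraries and R3 and R4 below them. Scaled by library total alone, BR4 (3.43 CPM) was above R1 (3.08 CPM) and R2 (3.24 CPM), while R3 and R4 were still the lowest.

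Mean levels of CLV1A were 2.78 ± 0.334 CPM in BR and 2.39 ± 1.21 CPM in R (SD, n = 4). This was a log2 fold change of 0.22 (SE 0.36, 95% interval -0.58 to 1.02; edgeR adjusted p = 0.706), and the interval includes a change as large as that of NARK as well as a fall. An exact two-sided permutation test gave p = 0.457. Which R libraries were used set the direction. Without R3 and R4 it was -0.27 in log2 units (SE 0.25, with an edgeR adjusted p of 0.518). Without R1 and R2 it was 1.05 (SE 0.32, edgeR adjusted p = 0.0328), which passes. Passing was common in that fit, with 10237 of 30873 tested genes called, 5160 of them higher in BR. With all libraries 5409 of 29508 were called, 2355 of them higher. With only R4 left out the log2 fold change of CLV1A was 0.00175 (SE 0.30), and -0.0115 (SE 0.31) with no filter on low counts.

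**Figure D3:**
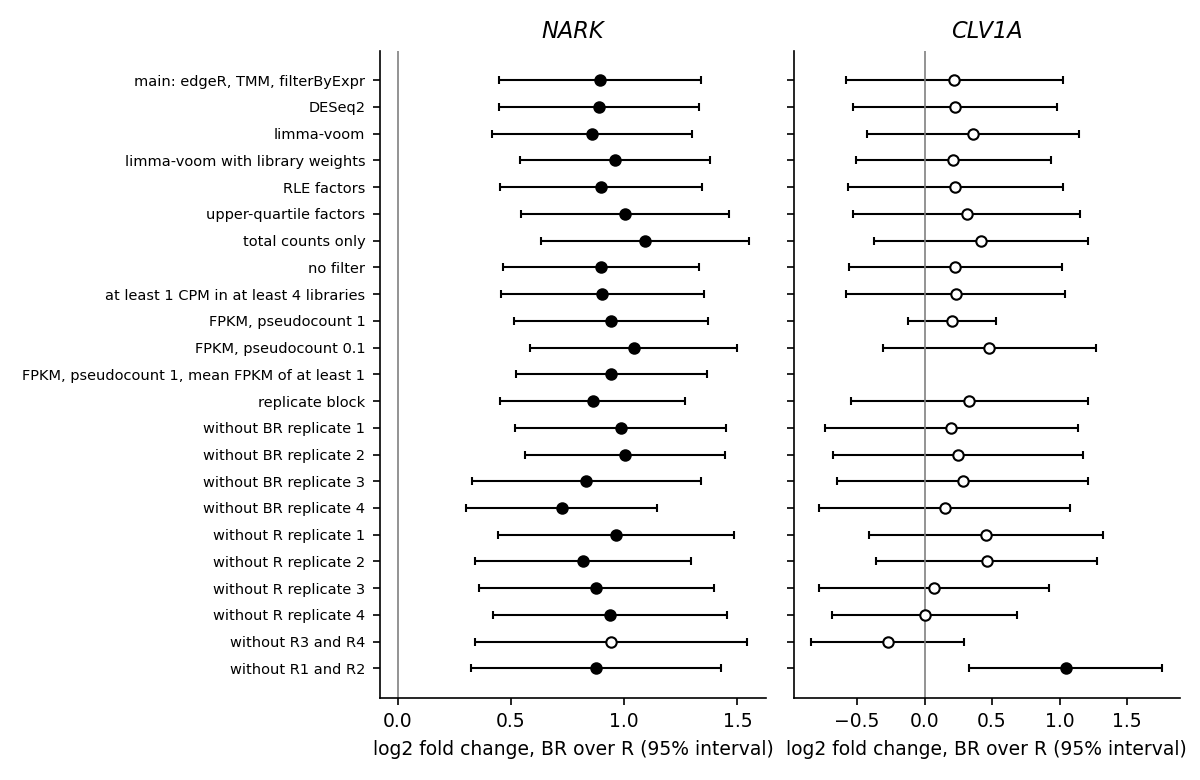
Log2 fold change of BR over R with its 95% interval for NARK (left) and CLV1A (right) in each setting, filled where the adjusted p is below 0.05. NARK is filled in all settings but the one without R3 and R4; CLV1A is open in all settings but the one without R1 and R2, and is missing where its mean FPKM is below the minimum of 1.

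Per unit of gene length, NARK was the most abundant of the 4 genes in every library. BR1 to BR4 had 9.78, 9.41, 14.4 and 16.7 FPKM (fragments per kilobase of gene length, scaled to the library total) of NARK, and R1 to R4 had 6.50, 4.93, 5.92 and 6.26 FPKM. CLV1A had 0.791 to 1.02 FPKM in BR and 0.305 to 0.965 FPKM in R. The level of NARK per length was 10.8 to 18.2 times that of CLV1A in BR and 5.11 to 20.5 times in R, ranges that overlap.

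Of the reads counted for the homeolog pair, NARK took 91.5%, 91.9%, 94.8% and 94.3% in libraries BR1 to BR4, compared with 87.7%, 83.7%, 92.8% and 95.4% in libraries R1 to R4. The lowest share, in R2, had an exact 95% binomial interval of 78.9% to 87.7%, and the highest, in R4, one of 92.5% to 97.4%; such intervals cover counting error only. The spread within R was thus larger than counting error and spanned the whole BR range. The share averaged 93.1% ± 1.67 in BR and 89.9% ± 5.23 in R (SD, n = 4). Whether the change in NARK differs from that in CLV1A was not tested. The sources used here do not say how reads that match both copies were counted, and the division between them is uncertain to that extent.

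**Figure D4:**
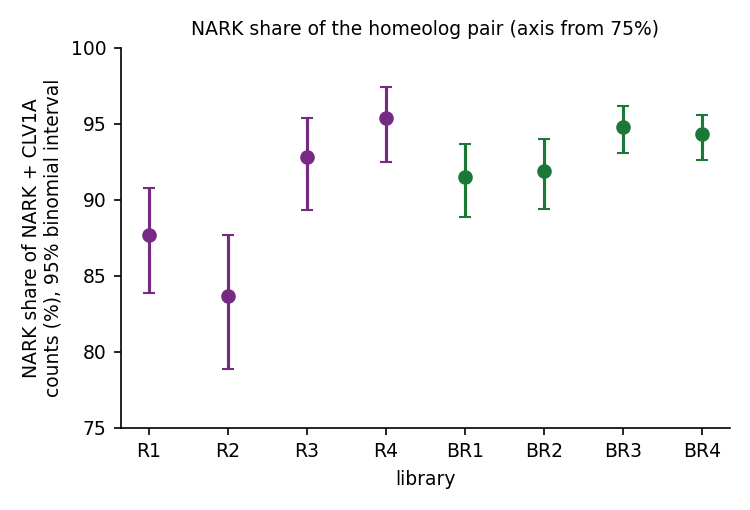
NARK reads as a percentage of NARK and CLV1A reads in each library, with exact 95% binomial intervals and an axis that starts at 75%. R1 (87.7%) and R2 (83.7%) are the lowest, and R3 (92.8%) and R4 (95.4%) lie in or above the BR range of 91.5% to 94.8%.

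The CLE peptide genes were near the limit of detection in these nodules. RIC1 and RIC2 together gave 45 reads in all 8 libraries, and neither passed the filter on low counts (filterByExpr, minimum count 10), so the members tested with the other genes were NARK and CLV1A. A count of 0 allows up to 3 counts, which corresponds to 0.174 to 0.211 CPM in these libraries.

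RIC2, the peptide gene known to respond later to rhizobia, gave 1, 3, 9 and 3 reads in libraries BR1 to BR4, compared with 1, 1, 0 and 0 in libraries R1 to R4. BR3 was the highest, and BR1 with 0.0661 CPM was level with R1 and R2 (0.0655 and 0.0674 CPM), so the groups met. Summed over libraries the counts were 16 in BR and 2 in R, a ratio of 7.19 per library total with an exact 95% interval of 1.69 to 64.5 that covers counting error only. Against the spread between libraries the difference did not pass. The edgeR fit without the filter gave a log2 fold change of 2.41 (SE 1.02; unadjusted p = 0.0373, adjusted p = 0.149), and an exact two-sided permutation test gave p = 0.0857. Without BR3 the summed counts were 7 and 2, a ratio of 4.21 with an interval of 0.802 to 41.5.

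RIC1, the peptide gene known to respond early to rhizobia, had 21 of its 27 reads in a single R library. R2 held those 21, and R1, R3 and R4 held 0, while BR1 to BR4 held 1, 0, 5 and 0. In R2 this was 1.42 CPM or 2.01 FPKM, above the 0.965 FPKM of CLV1A in the same library. In each of the other 7 libraries CLV1A exceeded both peptide genes per length.

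The direction of the RIC1 difference rested on R2. With all libraries the summed counts were 6 in BR and 21 in R, and the edgeR fit without the filter gave a log2 fold change of -2.04 (SE 1.51; adjusted p = 0.406). Without R2 the remaining R libraries had 0 counts against 6 in BR, and the edgeR log2 fold change turned to 3.57 (SE 2.13; adjusted p = 0.281). Of those 6 counts 5 were in BR3, and without R2 and BR3 the sums were 1 in BR and 0 in R, too few for a ratio. An exact two-sided permutation test over all 8 libraries gave p = 1.

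**Figure D5:**
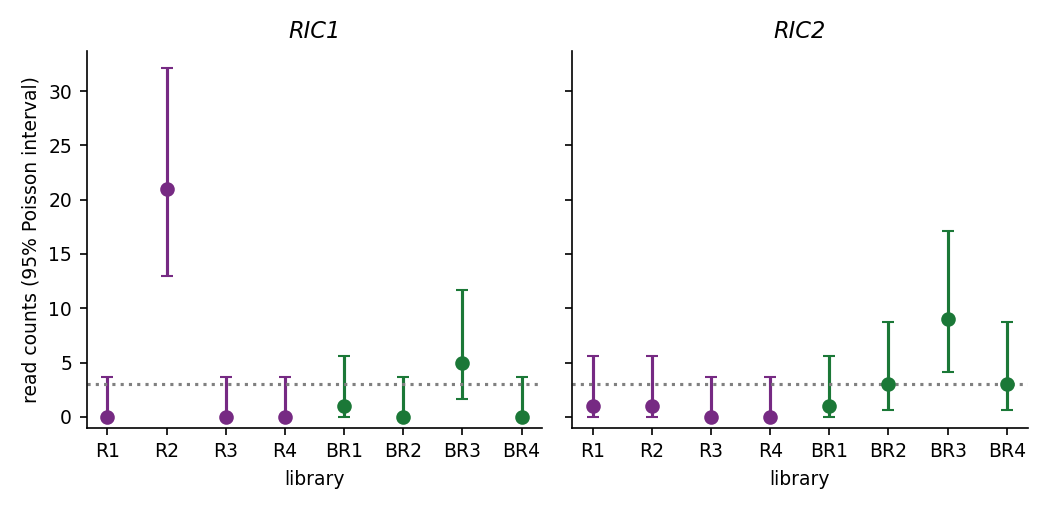
Read counts of RIC1 (left) and RIC2 (right) in each library with exact 95% Poisson intervals; the dotted line marks 3 counts. RIC1 stands out in R2 with 21 counts, and the highest RIC2 library is BR3 with 9.

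The highest readings of the peptide genes did not fall in the libraries with the highest NARK throughout. BR3 held the most RIC2 and, within BR, the most RIC1, and was second to BR4 in NARK. R2, with the most RIC1, had the lowest NARK of all 8 libraries, at 17.7 CPM after scaling, and 1 read of RIC2.

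Genes whose levels followed the receptor genes most closely over the 8 libraries were sought among all tested genes. The closest to NARK was Glyma.10G205400.Wm82.a2.v1, on chromosome 10, with a Pearson correlation of log2 CPM of 0.994. It reached 1.51, 1.31, 2.53 and 3.30 CPM in libraries BR1 to BR4, compared with 0.789, 0.432, 0.517 and 0.654 CPM in libraries R1 to R4, so it also was higher in every BR library. Its rise was 1.84 in log2 units (SE 0.40), a value larger than that of NARK. The gene was sparsely counted, with at most 0.789 CPM in R, so counting error weighs on its levels and fold change. The closest to CLV1A was Glyma.15G052500.Wm82.a2.v1, on chromosome 15, with a correlation of 0.989. It showed the same split, with 3.87 and 4.47 CPM in R1 and R2, 1.92 and 1.23 CPM in R3 and R4, and 3.32 to 3.80 CPM in BR (log2 fold change 0.28, SE 0.36). Another 36 genes correlated with NARK above 0.95 and another 43 with CLV1A. Each named gene was the closest of all tested genes over 8 libraries that share their depth and group differences. A gene picked in this way tends to share the group difference of the gene it was matched to. Its correlation and its fold change are therefore descriptions only.

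Several genes near NARK in identifier order on chromosome 12 were also higher in BR. Of the 10 nearest tested genes, 5 on each side, 3 were called higher and 1 lower, with log2 fold changes from -0.70 to 1.82. The adjacent tested gene before NARK had a log2 fold change of 0.68 (edgeR adjusted p = 0.0385) and the adjacent one after it 1.41 (edgeR adjusted p = 0.0382). Around CLV1A 2 of 10 were called higher and 0 lower, around RIC1 4 higher and 0 lower, and around RIC2 1 higher and 0 lower. Over all tested genes the corresponding shares were 7.98% and 10.3%. The sources used here do not say whether counting used strand; where genes overlap, their reads cannot be told apart.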

How the data were processed

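Per the labels' protocols, nodule RNA was taken up in Trizol and made into Illumina libraries (VAHTS Universal V6 kit). The authors deposited unnormalized counts of reads for each gene and library. For the 4 genes, the FPKM that the authors deposited as well equal the deposited counts divided by total and by 1 length per gene, within 0.1%. The submitters' processing notes name HTSeq 0.6.0, HISAT2 2.1.0, TopHat2, Bowtie2 2.2.3 and CASAVA, with no role or order; the sources used here do not give the genome build. The 4 genes, the lists and the tests were chosen with earlier results of these data known. A list of further autoregulation genes and a list of nodule markers, both to be drawn from the reference table by name, could not be applied: 0 of 43517 identifiers matched it. The rule for named genes took the 4 genes, the tested gene most correlated with each tested one, and neighbours as counts.

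The test of the counts was that of edgeR 4.0.16 in R 4.3.3 (filterByExpr, minimum count 10 and minimum total 15; TMM; quasi-likelihood F test without covariates; Benjamini-Hochberg adjustment over 29508 genes, threshold 0.05). SEs were obtained as log2 fold change over the root of F. RIC1 and RIC2 did not pass the filter, and the fit without it stood in. The script was tested on simulated counts with independent noise and without the split of the R libraries, so that test does not bear on the split. Permutation tests used log2(scaled CPM + 0.1), and correlations log2 CPM with a prior count of 2. TMM factors ranged from 0.913 to 0.951 in R and from 1.05 to 1.10 in BR. No pair of libraries agreed within counting noise (lowest chi-square per degree of freedom 6.76 in BR and 11.7 in R). Alternatives were DESeq2 1.42.0, limma 3.58.1 (voom, and FPKM with pseudocounts of 1 and 0.1), other scalings and filters, a replicate block, and left-out libraries.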

Additional observations from a re-analysis of the deposited data

Results flagged for a closer look

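A library far from the other 3 was sought in 10 groups of 4 libraries. These groups covered the CPM of the 4 genes and the NARK share of the homeolog pair. Such a library was found once. For independent groups of normally distributed values chance gives about 1 in 20, a rate that does not hold for counts this sparse. The library was R2 for RIC1, with 1.42 CPM (21 counts) where R1, R3 and R4 had 0. Beside values of 0 in the others, any count would have been flagged. Genes with such a pattern were few, and R2 held all of those with 20 or more counts. In R2, 7 genes had at least 20 counts with 0 in the other 3 libraries of the group, RIC1 among them, and in each of the other 7 libraries the number was 0. With at least 10 counts the number was 15 in R2, 7 in R3, 1 in BR2 and 0 elsewhere, and with at least 5 counts it was 55 in R2 and 11 to 18 in the other libraries. The 7 genes had 21 to 58 counts in R2, and all had some reads in BR, 3 to 74 in sum. This search was chosen after the RIC1 counts had been seen.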

How the results depend on the processing

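The log2 fold change of NARK was 0.72 to 1.00 with 1 library left out and 0.94 without R3 and R4, where it missed the threshold; without the low-count filter it was 0.90, ranged from 0.72 to 0.99 with 1 library left out, missed the threshold without BR3 (0.82) and passed it in the other 13 settings, including the one without R3 and R4; with the replicate block it was 0.86 (edgeR adjusted p = 0.0218). With the low-count filter, CLV1A ranged from 0.00175 to 0.46 with 1 library left out, turned to -0.27 without R3 and R4, and passed with 1.05 without R1 and R2. With no filter, CLV1A was -0.0115 (SE 0.31) without R4, so its sign turned there with 1 library left out. RIC1 turned from -2.04 to 3.57 without R2 and to 3.59 without R1 and R2; it lay between -3.81 and 3.57 with 1 library left out. RIC2 stayed above 0 in 17 of 17 settings and did not pass in the 16 that gave an adjusted p; it ranged from 0.25 with FPKM and a pseudocount of 1 to 4.91 without R1 and R2; DESeq2 gave no adjusted p (unadjusted p = 0.07). Fits of NARK, CLV1A, RIC1 and RIC2 with no filter and another scaling, block or set of libraries were added after seeing the data. The number of called genes, 5409, was 2848 to 7333 with 1 library left out, 3554 without R3 and R4 and 10237 without R1 and R2; for these shifts the cause was not tested. The share of calls that were higher was 71.2% under total-count scaling, 57.7% under upper-quartile scaling and 43.5% under TMM. Same-numbered libraries deviated together with correlations of 0.065, 0.086, -0.084 and 0.09, so the numbers were not taken as pairs; the replicate block gave 4633 calls. At these depths the counts of RIC1 and RIC2 leave intervals too wide to show moderate changes.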
